A study of Mus musculus with 2 samples.

Results

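The genes described here encode subunits of the proteasome, the protease complex that degrades ubiquitin-tagged proteins in the cytosol and nucleus. They were chosen by name: every probe of the array annotated with exactly 1 gene symbol of the form Psma, Psmb, Psmc, Psmd or Psme followed by a number, except the interferon-induced Psmb8, Psmb9 and Psmb10, and with a value on both arrays. This gave 39 genes, each on 1 probe, of 14150 genes with a value on both arrays. The genes were picked because earlier results of these arrays placed them to the negative side, so their shift is described and not tested. The name constitutive covers most of them but not all. Psma8 is known from testis, Psmb11 from thymus, and Psme1 is itself induced by interferon gamma.

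The samples were murine CD8+ effector T cells of the transgenic pmel mouse, whose T cell receptor recognises a peptide of the melanocyte protein gp100. Cells after 2 rounds of stimulation in culture, in channel 2, were compared with cells after 1 round, in channel 1. Total RNA of both was hybridised together on each of 2 microarrays, the second being a repeat of the first. The agent of stimulation, the age and strain of the mice and the number of animals or cultures are not given in the sources used here, and errors between the arrays may therefore be technical. For each probe the table gives the log ratio between channels, taken as base 2, without saying which channel was divided by which. The order of the titles makes cells after 1 stimulation over cells after 2 likely, and RNA with a negative ratio would then be more abundant after 2 stimulations. With the opposite order the sides swap, so results are given as the negative and positive side of the ratio. Ratios give no level of a gene, so members cannot be ranked by abundance and the purity of the cells cannot be read from defining markers. Fewer cells of a type and less RNA per cell cannot be told apart in such RNA.

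The proteasome is built from a barrel-shaped core particle and a regulatory particle that caps it. The alpha subunits form the outer rings of the barrel and gate its entrance, and the beta subunits form the inner rings, where Psmb5, Psmb6 and Psmb7 carry the active sites. The regulatory particle has a base, whose ATPases unfold substrates and thread them into the barrel, and a lid, which removes the ubiquitin chain. In activated T cells the catalytic beta subunits can be exchanged for Psmb8, Psmb9 and Psmb10, giving the immunoproteasome, which favours peptides for MHC class I.

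Of the 39 genes, 25 were negative on both arrays, 5 were positive on both, and 9 changed sign or stood at 0 on an array. The shares among all 14150 genes were 33.6% for negative and 29.6% for positive values on both. Taken singly, 28 members were below 0 on array 1, against 51.6% of all genes, and 31 on array 2, against 51%. Because the genes were chosen for this side, nothing is read from that contrast. The median log2 ratio of the members was -0.35, against -0.02 over all genes. It was -0.12 on array 1 and -0.47 on array 2, where all genes had medians of -0.02 and -0.01. On array 2, 19 members were at or under -0.5, against 12.2% of all genes, and on array 1 there were 4, against 8.95%. The shift is thus larger on array 2. No member was 2-fold from a ratio of 1 on both arrays, on either side. Of all genes, 0.721% were that far below 0 and 0.233% that far above it, so few members would be expected there. The absence of such members rests on base 2: read as natural logs, Psmd2 would pass, at -1.04 and -1.18 on the log2 scale. In limma's moderated test 0 of 21427 probes passed an adjusted p of 0.05 (0% called). The smallest adjusted p was 0.162, and 3186 probes had an unadjusted p under 0.05. A robust prior also called 0.

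**Figure D1:**
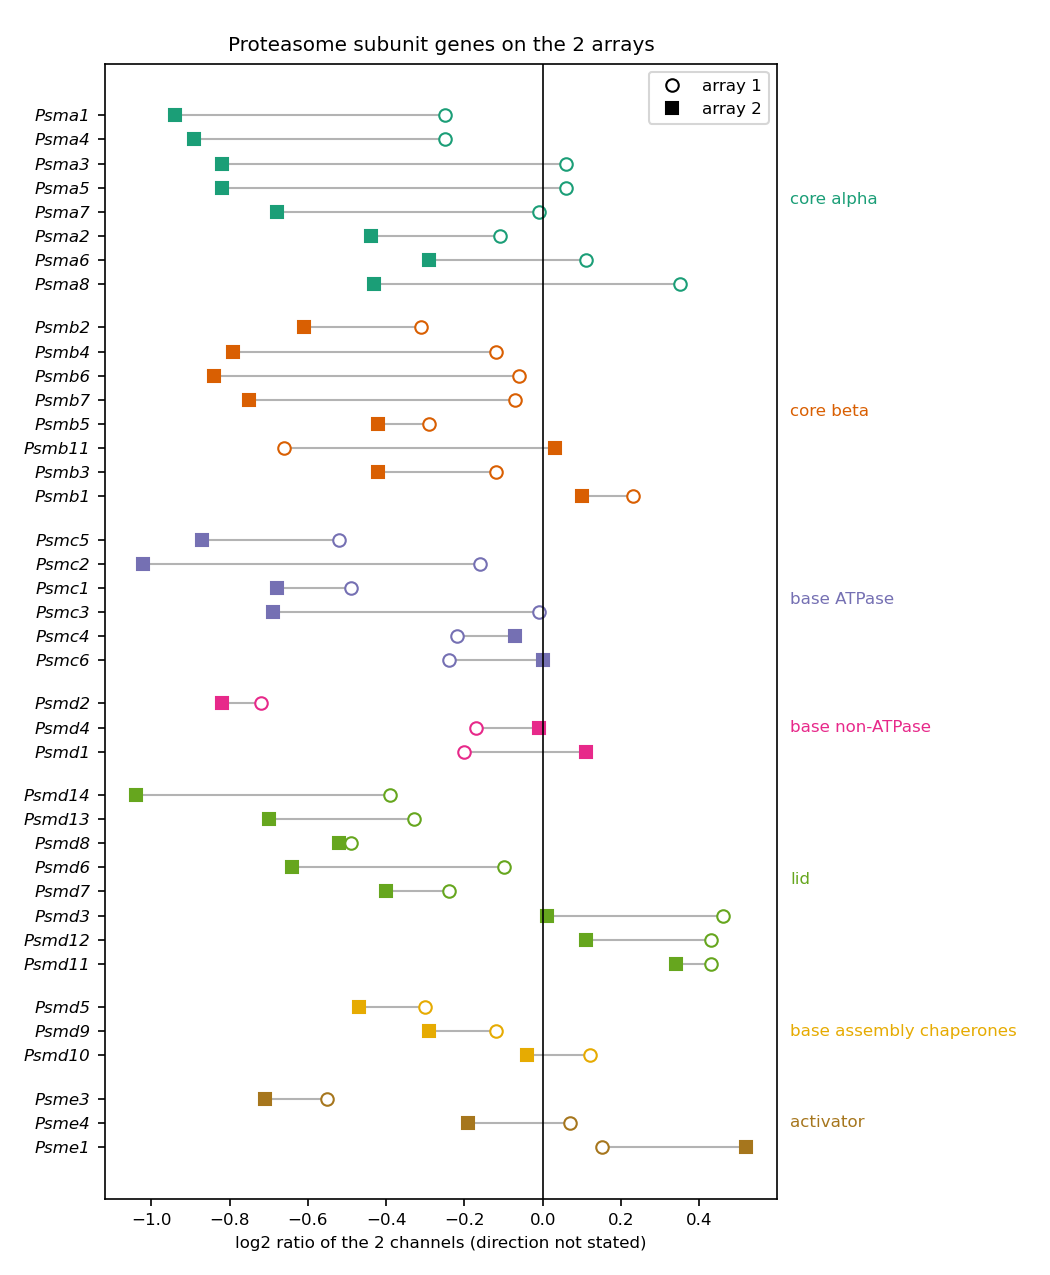
Log2 ratio of each member gene on array 1 (open circles) and array 2 (filled squares), grouped by place in the proteasome. The 8 alpha subunits all lie further to the negative side on array 2, while Psmd2, Psmc5 and Psme3 are at or under -0.5 on both arrays.

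The alpha subunits of the core particle were spread around 0 on array 1 and all negative on array 2. Their 8 values ran between -0.25 and 0.35 on array 1 and between -0.94 and -0.29 on array 2, with medians of 0.03 and -0.75, so the median changed sign between the arrays. On both arrays 4 of the 8 were negative. Psma1 was the lowest of them, with -0.25 on array 1 and -0.94 on array 2, a mean of -0.60 ± 0.49 (SD, n = 2). Psma4 followed at -0.25 and -0.89. Their values on the 2 arrays are far apart, and the SD of Psma1 is nearly as large as its mean. Psma3 and Psma5 gave identical pairs of values, 0.06 on array 1 and -0.82 on array 2, from probes of different accessions. Psma7 read -0.01 and -0.68, and Psma2, with the smallest gap between arrays of the class, read -0.11 and -0.44. The highest mean of the class was that of Psma8, the testis alpha subunit, with 0.35 and -0.43. Psma6 stood at 0.11 and -0.29. On every alpha subunit the value of array 2 was below that of array 1, by a median of 0.68 on the log2 scale.

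Of the 8 beta subunits, 6 were negative on both arrays, 1 was positive on both and 1 changed sign. The class had medians of -0.12 on array 1 and -0.52 on array 2. The catalytic subunits were all among the 6. Psmb5, which carries the chymotrypsin-like activity, read -0.29 and -0.42, a mean of -0.36 ± 0.09 (SD, n = 2). Psmb6, which carries the caspase-like activity, read -0.06 and -0.84. Psmb7, which carries the trypsin-like activity, read -0.07 and -0.75. The arrays thus differ little for Psmb5, while for Psmb6 and Psmb7 nearly the whole shift rests on array 2. Among the structural beta subunits Psmb2 had the lowest mean, -0.46 ± 0.21 (SD, n = 2), with -0.31 and -0.61 on the arrays. Psmb4 read -0.12 and -0.79, and Psmb3 -0.12 and -0.42. Psmb1 was the exception among the standard beta subunits, positive at 0.23 and 0.10. Psmb11, the beta subunit of the thymic cortex, changed sign between the arrays, with -0.66 and 0.03. It was the sole beta subunit lower on array 1 than on array 2.

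The immunoproteasome subunits, which replace the catalytic subunits, did not follow them on array 2. Psmb8, the counterpart of Psmb5, read -0.14 and 0.33. Psmb9, the counterpart of Psmb6, read 0.08 and 0.81, and Psmb10, the counterpart of Psmb7, -0.20 and 0.55. All 3 were positive on array 2, where the catalytic members were all negative. The log2 ratio of Psmb5 minus that of Psmb8 was -0.15 on array 1 and -0.75 on array 2. For Psmb6 minus Psmb9 the differences were -0.14 and -1.65, and for Psmb7 minus Psmb10 they were 0.13 and -1.30. On array 1 the pairs were thus close and differed in direction, and no test was made of the difference.

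**Figure D2:**
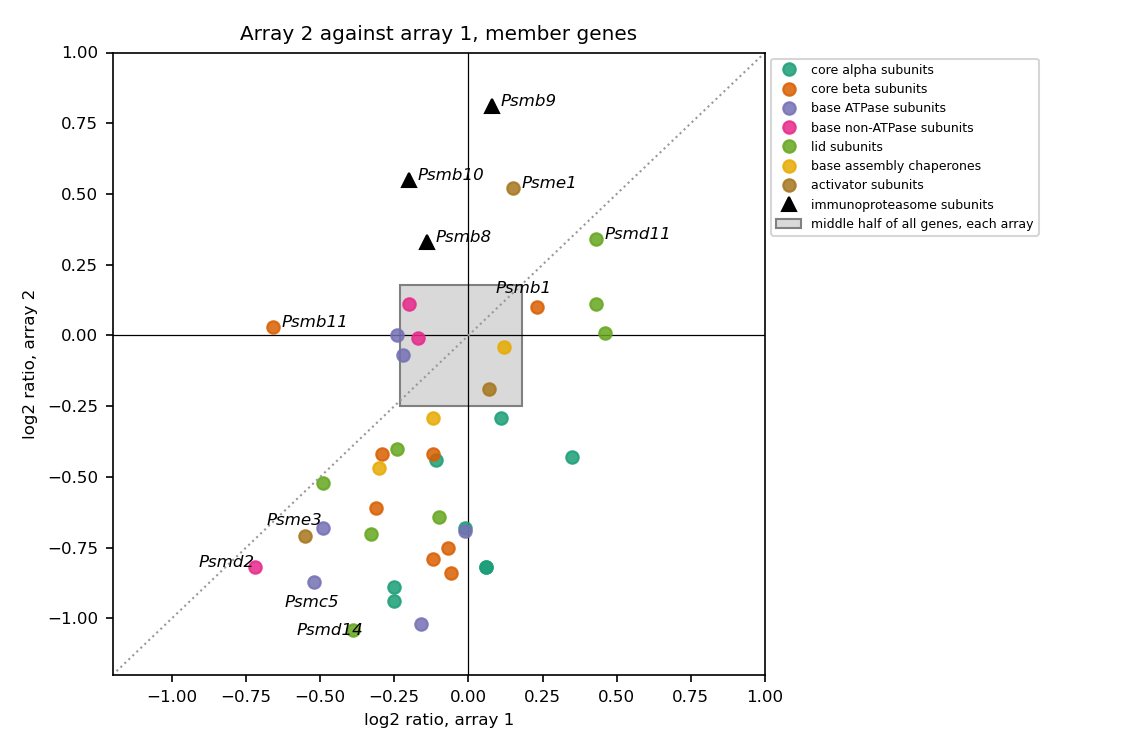
Log2 ratio of each member gene on array 2 (vertical) against array 1 (horizontal), with the immunoproteasome subunits as triangles and the quartile range of all genes on each array as a grey box. Most members lie below the dotted line of equal values, and Psmb8, Psmb9 and Psmb10 lie above it.

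The ATPases of the base were the class with the lowest median of the means, -0.47, with -0.23 on array 1 and -0.69 on array 2. On array 2 alone the alpha subunits were lower, with a median of -0.75. All 6 were negative on array 1, and 5 of 6 on array 2, where Psmc6 stood at 0.00. Psmc5 was the lowest of them, with -0.52 and -0.87, a mean of -0.70 ± 0.25 (SD, n = 2). Psmc1 read -0.49 and -0.68, so both of these ATPases lay to the negative side of each array. Psmc2 was strongly negative on array 2 alone, with -0.16 and -1.02, and Psmc3 likewise, with -0.01 and -0.69. Psmc4 and Psmc6 were close to 0 on array 2, with -0.22 and -0.07 for Psmc4 and -0.24 and 0.00 for Psmc6, the highest mean of the class. The 6 ATPases form a single ring in which each takes 1 place. Their means ranged between -0.70 and -0.12, while the SD between the arrays reached 0.61, for Psmc2. Across the 6 genes the arrays correlated at 0.146 by Pearson's r and -0.143 by Spearman's rho, so the order of the ATPases is not settled.

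The base also holds large scaffold subunits and a ubiquitin receptor. Psmd2, a scaffold subunit that docks substrate shuttles and deubiquitinases, had the lowest mean of all 39 members, -0.77 ± 0.07 (SD, n = 2), a 1.71-fold difference. It read -0.72 on array 1 and -0.82 on array 2, so the arrays were close. Of all genes, 3.31% had a mean as low or lower. Its partner scaffold Psmd1 read -0.20 and 0.11, and the ubiquitin receptor Psmd4 -0.17 and -0.01, so neither stood apart from 0 on both arrays.

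Among the lid subunits no gene changed sign between the arrays. Of 8, 5 were negative on both arrays and 3 positive on both. Psmd14, the deubiquitinase of the lid, was the lowest, with -0.39 and -1.04, a mean of -0.72 ± 0.46 (SD, n = 2). Psmd8 agreed closely between the arrays at -0.49 and -0.52. Psmd13 read -0.33 and -0.70, Psmd6 -0.10 and -0.64, and Psmd7, the partner of Psmd14 in the lid, -0.24 and -0.40. On the positive side stood Psmd11, with 0.43 and 0.34, a mean of 0.39 ± 0.06 (SD, n = 2) and the highest of all members. Psmd12 read 0.43 and 0.11, and Psmd3 0.46 and 0.01. These 3 are scaffolding subunits of the lid that carry a PCI domain, a fold that Psmd6, Psmd8 and Psmd13 carry too, so the fold does not divide the signs. For each of the 8 lid subunits array 2 was lower than array 1.

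Psmd5, Psmd9 and Psmd10 are chaperones that assemble the base and are not part of the finished particle. Psmd5 read -0.30 and -0.47, the lowest of them, and Psmd9 -0.12 and -0.29. Psmd10, known as gankyrin, was the highest with 0.12 and -0.04. Each differed between the arrays by 0.16 or 0.17 on the log2 scale, less than each alpha subunit did.

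The activators, which open the core particle in place of the regulatory particle, stood on different sides. Psme3, the nuclear activator subunit, was negative on both arrays with -0.55 and -0.71, a mean of -0.63 ± 0.11 (SD, n = 2). Psme1, a subunit of the interferon-induced activator, was positive on both with 0.15 and 0.52, a mean of 0.34 ± 0.26 (SD, n = 2). Psme4, a single-chain activator of the nucleus, stood near 0 with 0.07 and -0.19. Psme1 was the sole one of the 3 that was higher on array 2. So were the immunoproteasome subunits and, in other classes, Psmb11, Psmc4, Psmc6, Psmd1 and Psmd4. The partner of Psme1 is Psme2. The platform's annotation gives a probe with the accession D87910 to the copy Psme2b, outside the rule, and it read 0.43 and 0.40. Psme2b is a copy of Psme2, and which of the 2 the probe detects was not tested.

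Across the members 3 genes were at or under -0.5 on both arrays, Psmd2, Psmc5 and Psme3, against 4.3% of all genes (609 genes). Each belongs to another class, and none to the core particle, but the count turns on the cutoff. Psmc1, at -0.49 and -0.68, and Psmd8, at -0.49 and -0.52, fell just short of it. After median centring the count was 5, and nothing is read from it about the classes. The members positive on both arrays were Psmb1, Psmd3, Psmd11, Psmd12 and Psme1. Over the 39 genes, the correlation between the arrays was 0.454 by Pearson's r and 0.414 by Spearman's rho, and over all genes it was 0.519 and 0.444. These are correlations across genes that share the arrays, given as a description. Array 2 was lower than array 1 for 33 of the 39 members, against 51.1% of all genes. Within the core particle the means of its 16 genes had an SD of 0.197 on the log2 scale, and within the 17 genes of base and lid it was 0.358. The arrays hardly correlated within the core, with an r of -0.015 and a rho of 0.1. Within base and lid these were 0.654 and 0.58, so the smaller SD of the core does not show a more uniform shift. No test was made between classes, since the members were chosen in this contrast.

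On array 2, but hardly on array 1, the members' values differed by position in the probe numbering. Of the members, 18 have probe numbers between 1229607 and 1229815, a stretch whose limits were set by member probes. It holds 14 of the 16 core subunits, so that core particle and stretch largely coincide. The 18 members had medians of -0.12 on array 1 and -0.70 on array 2, and 14 of them (77.8%) were negative on both arrays. The 189 other probes of that stretch had medians of -0.10 and -0.12. Both medians were below those of the whole arrays, 0.01 and 0.02, so the stretch as a whole lay to the negative side. Of the 189 probes, 51.3% were negative on both arrays. The share of 33.6% given for all genes counts genes, and the share over all probes was not computed. The 21 members outside it had medians of -0.20 and -0.29, and 11 of them were negative on both arrays. On array 1 the members of the stretch were therefore close to their neighbours, and on array 2 they were lower. After the median of the 20 nearest non-member probes was taken off each member, a setting chosen after seeing the data, the median of the members was -0.28 and 17 of 39 were negative on both arrays. The same was not done for all genes, so this count has no share beside it. Whether the numbers follow places on the slide is not given, and the part of probe position in the result was not tested.

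Genes that assemble and serve the proteasome but lie outside the rule were examined as lists. Their counts stand beside shares of 33.6% below 0 and 29.6% above 0 on both arrays among all genes. Among 6 genes of core particle assembly and inhibition, 4 lay below 0 on both arrays and 0 above it on both, with medians of -0.24 on array 1 and -0.31 on array 2. The assembly chaperone Psmg2 had the lowest mean, with -0.27 and -0.35. The inhibitor Psmf1 had the highest, with 0.11 and -0.32. The maturation factor Pomp changed sign between the arrays, with 0.18 and -0.76. Of 9 measured proteasome-bound receptors, shuttles and deubiquitinases, 3 lay below 0 and 1 above 0 on both arrays. Both deubiquitinases that dock on the regulatory particle were negative, Uchl5 with -0.68 and -1.51 and Usp14 with -0.60 and -0.59. Sem1, a small lid subunit whose symbol falls outside the rule, was positive with 0.87 and 0.42. The probes of Ubqln1 disagreed, with means between -0.36 and 0.38. Of 8 genes of the p97 segregase, which extracts ubiquitinated proteins for the proteasome, 5 lay below 0 and 0 above 0 on both arrays. Vcp, the segregase itself, read -0.70 and -0.63, and its cofactor Ube4b, the highest of the list, -0.06 and 0.03. Derl2, a membrane protein of the same route, shared the lowest mean, with -0.93 and -0.40.

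The regulators were mixed. Nfe2l1, the transcription factor that raises proteasome genes when proteasome activity is low, read -0.75 and -0.12. Its relative Nfe2l2 changed sign, with 0.36 and -0.80. Keap1, which holds Nfe2l2 back, was the highest with 0.14 and 0.38, and Ngly1, which processes Nfe2l1, read -0.08 and 0.24. Of 3 measured genes of ubiquitin and ubiquitin-like supply, Uba6 was the highest with 0.32 and -0.04 and Uba3 the lowest with 0.07 and -0.69. None of these related genes was 2-fold from a ratio of 1 on both arrays, a size reached by 0.721% of all genes below 0 and 0.233% above it.

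**Figure D3:**
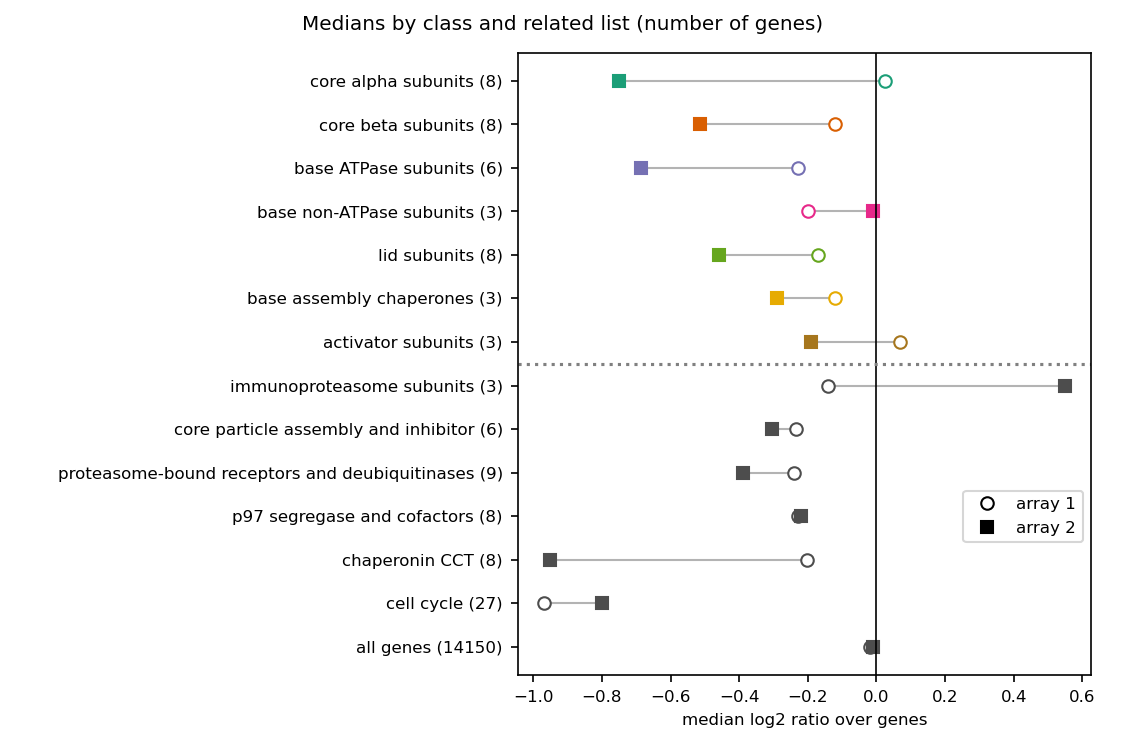
Median log2 ratio over genes on array 1 (open circles) and array 2 (filled squares) for the 7 classes of members (above the dotted line) and for related lists and all genes (below it), with the number of genes in brackets. The alpha subunits have medians of 0.03 on array 1 and -0.75 on array 2, and the immunoproteasome subunits lie on the positive side on array 2.

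Other complexes and markers moved beside the members. The chaperonin CCT, a folding complex with 8 measured genes, had medians of -0.20 on array 1 and -0.95 on array 2, and 7 of the 8 were lower on array 2. Its lowest gene was Cct6a, with -0.42 and -1.43. The exception was Cct4, whose 2 probes disagreed, with -0.06 and 0.68 on the arrays for 1 of them and -0.41 and -0.69 for the other. Of 27 measured cell cycle genes, 24 were negative on both arrays, with medians of -0.97 on array 1 and -0.80 on array 2. That list was thus far to the negative side on array 1 too, where the proteasome genes had a median near 0. Among 6 measured B cell markers 5 lay above 0 on both arrays and 0 below it on both, with medians of 0.26 on array 1 and 0.76 on array 2. Among 6 T cell markers, those counts were 4 and 0 and the medians 0.12 and 0.44. For 5 myeloid markers the counts were 1 and 2, and for 7 other lymphoid and dendritic markers 2 and 3. The part of proliferation and of other cells in the members' values was not tested.

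The sequences before the gene starts were examined next, as a feature that the choice of genes did not use. RefSeq promoter sequences of build GRCm38.p6, from 250 bases before to 50 after each start, were found for 32 of the 39 genes by gene ID. Psma8, Psmb1, Psmb2, Psmb7, Psmc3, Psmd3 and Psmd7 had no entry. The 120 bases before the start are shown for the genes at or under -0.5 on both arrays (Psmd2, Psmc5, Psme3) and for those positive on both that had an entry (Psmd11, Psmd12, Psme1), so that opposite sides can be compared. All 6 lie on the plus strand, at chr16:20651532-20651651, chr11:106256065-106256184, chr11:101316093-101316212, chr11:80428495-80428614, chr11:107479408-107479527 and chr14:55578374-55578493 in that order. Capitals mark CGGAAG, the exact string searched here as the ETS core, or CTTCCG, its reverse complement. Other strings that ETS family factors may bind were not searched and are not marked.
Psmd2: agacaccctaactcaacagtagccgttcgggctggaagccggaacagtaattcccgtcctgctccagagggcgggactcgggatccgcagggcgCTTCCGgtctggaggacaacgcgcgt
Psmc5: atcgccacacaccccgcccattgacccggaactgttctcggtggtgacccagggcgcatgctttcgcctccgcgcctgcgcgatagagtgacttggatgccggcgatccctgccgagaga
Psme3: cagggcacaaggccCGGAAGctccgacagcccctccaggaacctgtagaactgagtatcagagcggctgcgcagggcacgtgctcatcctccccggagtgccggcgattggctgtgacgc
Psmd11: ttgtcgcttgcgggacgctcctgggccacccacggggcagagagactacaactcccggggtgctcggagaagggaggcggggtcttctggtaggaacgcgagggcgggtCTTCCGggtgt
Psmd12: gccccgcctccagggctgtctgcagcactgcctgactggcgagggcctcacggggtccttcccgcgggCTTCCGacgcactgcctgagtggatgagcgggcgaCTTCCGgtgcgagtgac
Psme1: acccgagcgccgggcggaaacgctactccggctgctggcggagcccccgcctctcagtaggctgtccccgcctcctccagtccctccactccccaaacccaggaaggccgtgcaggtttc

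The ETS core was found on either strand in 20 of the 32 member promoters (62.5%), against 18.8% of 27025 genes with a promoter in the RefSeq table. The member promoters are rich in CpG, with a median of 20 CpG in 300 bases, against 7 over all promoters, and in GC, with medians of 58.2% and 52.7%. Among 9588 genes whose promoters hold at least as many CpG as the lower quartile of the members, the ETS core was found in 36.3%. Of 33 matches in the members, 20 began within the 100 bases before the start. Positions were not counted in other promoters, so no share stands beside this. The motif stood in 13 of 21 promoters of members negative on both arrays and in 7 of the 11 others, and the printed sequences show it on both sides, near the start of Psmd2 and also of Psmd11 and Psmd12.

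Another 6 motifs were searched in the same way, on both strands, each counted on its own even where it overlaps another. The element of nuclear respiratory factor, GCGCNTGCG, was found in 6 member promoters (18.8%), against 7.12% of all genes and 17.7% of the CpG-rich ones. They were those of Psma2, Psma3, Psma4, Psmc4, Psmc5 and Psmd14. The GC box GGGCGG stood in 62.5% of member promoters, against 38.2% of all genes and 79.5% of CpG-rich ones. The core of the antioxidant element that NFE2L factors bind, TGACNNNGC, was in 6 member promoters (18.8%), among them those of Psmb5 and Psmb6, against 13.99% of all genes and 17.5% of CpG-rich ones. The NF-Y box CCAAT was as frequent in members (40.6%) as in all genes (41.1%). The heat shock element core GAANNTTC was in 1 member promoter, that of Psmb5, or 3.12%, against 9.04% of all genes and 6.34% of CpG-rich ones. The interferon element core GAAANNGAA was in 6 members (18.8%), against 9.76% of all genes and 6.65% of CpG-rich ones. They were those of Psmb3, Psmb4, Psmc2, Psmd4, Psmd9 and Psme1. The interferon core thus stood in 5 of the 21 promoters of members negative on both arrays and in 1 of the 11 others. That 1 was Psme1, positive on both. The element of nuclear respiratory factor had the same counts, so this split is not particular to the interferon core, and nothing is read from it. A match describes the letters in this window and shows no binding.

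**Figure D4:**
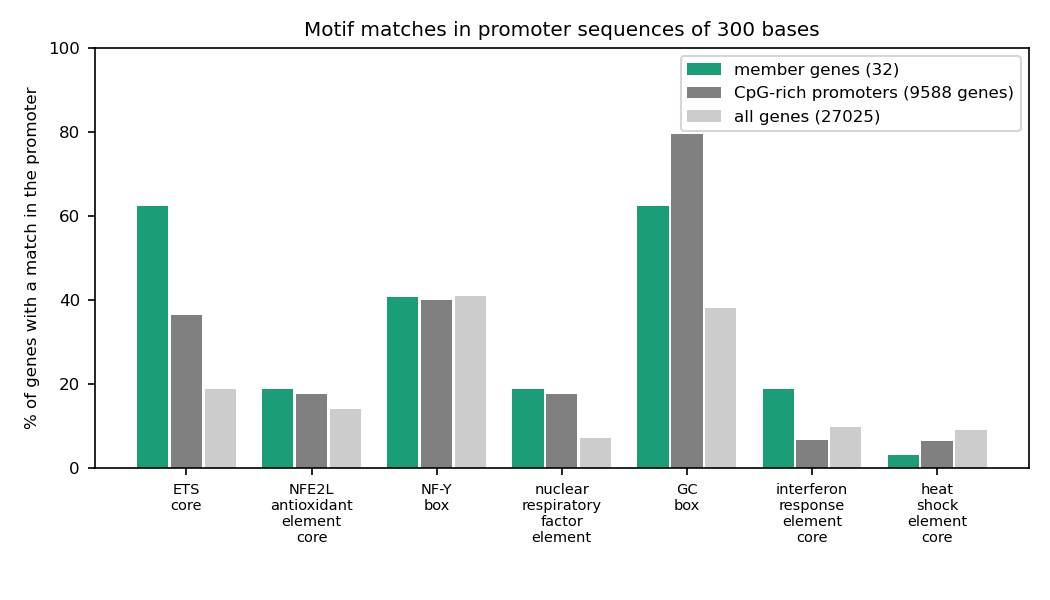
Percentage of genes with a match to each of 7 motifs in the promoter, for the 32 member genes, for 9588 genes with CpG-rich promoters and for all 27025 genes. The ETS core reaches 62.5% in member genes, 36.3% in CpG-rich and 18.8% in all genes.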

How the data were processed

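The deposited table holds 1 signed log2 ratio per probe and array. The authors' scanner, background correction, normalization and dyes are not given in the sources used, and base 2 is assumed from the values, which run from -3.76 to 4.19 with array medians of 0.01 and 0.02. A shift of all genes would therefore not be seen. Of 21919 probes, 21427 had a value on both arrays and 15998 had 1 gene symbol in the platform's annotation. Probes of 1 gene were averaged. The Entrez ID of all 39 members carried the same symbol in a RefSeq table of GRCm38.p6. The fit across all probes used limma 3.58.1 in R 4.3.3, testing the mean of both arrays against 0 (two-sided, eBayes variances, Benjamini-Hochberg adjusted). It was checked on simulated data with a common variance and shifts far larger than those of the members. That check does not speak to power at the members' sizes. With 2 arrays a probe has 1 residual degree of freedom, which limits the precision. Medians, counts and motif searches were computed in Python 3.11.15. The members, classes and lists were chosen with earlier results of these data known. Values of both arrays are given for the catalytic and activator subunits, members at or under -0.5 on both arrays, the extremes of each class, and those of the lists of proteasome assembly, receptors, segregase, regulators and ubiquitin supply. Cell cycle and cell type lists are given by counts and medians. The other members and related genes with values were added after these were seen, as were the motifs.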

Additional observations from a re-analysis of the deposited data

How the results depend on the processing

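Leaving out array 1 or array 2 moved every median. The median of the members lay between -0.47 and -0.12, the count negative between 28 and 31, and the count at or under -0.5 between 4 (array 2 left out) and 19 (array 1 left out), where both arrays together gave 3. Class medians changed sign between the arrays for the alpha subunits (-0.75 and 0.03) and the activators (-0.19 and 0.07), and not for the other classes. The count at or under -0.5 on both arrays was 5 after median centring, 6 with the values read as natural logs, 9 at a threshold of -0.3 and 0 at a threshold of -1. The moves with threshold and log base follow from the changed cutoff or scale. Median centring took the array 1 median of 0.01 off Psmc1 and Psmd8, both at -0.49 on array 1, which brought them to the cutoff. The cause of the differences between the arrays was not tested. Reading the values as natural logs, chosen after seeing the data, put the median at -0.50, and 1 member, Psmd2, was then at least 2-fold on both arrays. The count negative on both arrays was 26 after median centring or quantile normalization, and 17 after subtraction of the 20 nearest probes, where the count at or under -0.5 was 2. Averaging rules for probes and probes with a single value changed nothing for the members, each of which has 1 probe with both values. limma called 0 probes under median centring, quantile normalization, a robust prior and 1 value per gene, with smallest adjusted p-values of 0.14, 0.0929, 0.082 and 0.122. Without 1 array limma has no residual degrees of freedom, and no count is given. No paired analysis was possible because the 2 arrays form 1 group.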
